A study of Mus musculus with 14 samples.

Results

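The 47 nuclear genes whose symbol begins with Nduf were followed in tumours grown from LLC1, a Lewis lung carcinoma line of the mouse. They were taken by symbol from the 21152 genes of the deposited table, after the Ensembl identifiers had been matched to mouse symbols, and pseudogenes (symbols ending in -ps) were left out. Of the 47 genes, 39 are subunits or carry a subunit-type name and 8 are assembly factors (Ndufaf). One symbol was left out by this rule, Ndufb1-ps, which RefSeq lists as the protein-coding gene Ndufb1. Its values lay between 5.27 and 6.27.

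The tumours came from mice treated for 16 days with both compounds (called the combination here, 3 libraries), MYCi975 at 50 mg/kg (4 libraries), TMP195 at 50 mg/kg (3 libraries) or the DMSO vehicle (4 libraries). MYCi975 binds and inhibits MYC, a transcription factor, while TMP195 blocks class IIa histone deacetylases. The combined doses, the strain, sex and age of the hosts and the number of animals are not stated in the labels used. LLC1 is a single established cell line. The labels describe both an enriched tumour population and a bulk suspension of tumour cells, so the host cells that remained are not known from them. The p-values measure the spread between libraries, since no label says that each library is a separate animal.

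Complex I, or NADH:ubiquinone oxidoreductase, is the largest enzyme of the mitochondrial respiratory chain. Its N module in the matrix arm takes electrons from NADH, its Q module passes them through iron-sulfur clusters to ubiquinone, and the proximal and distal parts of its membrane arm pump protons. A few core subunits carry the catalysis, some of them encoded in the nucleus and the others in mitochondrial DNA, and a larger number of supernumerary subunits surround them. Assembly factors help to build the enzyme and are not part of the finished complex. In tumour cells complex I keeps NADH oxidised and so maintains, among other things, aspartate synthesis.

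Values are variance-stabilised expression on a log2 scale with a common lowest value of 4.047, and the read depth is unknown. The number of genes at this floor ran from 892 to 2158 with the combination, 1803 to 2954 with MYCi975, 1056 to 2430 with TMP195 and 880 to 2744 with vehicle. Of 8 epithelial and lung carcinoma markers 6 were among the deposited genes and 3 passed the filter on low values. The highest, the keratin genes Krt8 and Krt18, lay well above the floor in all libraries (7.84 to 8.88 over both genes). Epcam was at the floor in 4 libraries, and the group means of Krt19 (4.41 to 4.92) and Muc1 (4.85 to 5.10) lay near the floor. All 10 leukocyte and macrophage markers passed the filter on low values, with Ptprc, which encodes CD45, at 9.65 to 10.35 with the combination, 10.09 to 12.07 with MYCi975, 10.46 to 11.45 with TMP195 and 10.26 to 10.97 with vehicle. Of 12 skeletal muscle markers 4 passed it, and their list mean was highest in vehicle replicate 3 (2.50) and lowest in combination replicate 3 (-1.64). A list mean is the mean over genes after each gene was centred on its own mean over the 14 libraries. MYCi975 replicate 2 stood apart with the highest Ptprc and the most genes at the floor. Without it the subunit median with MYCi975 against vehicle was -0.054, in place of -0.079 with all libraries, and without vehicle replicate 1 it was -0.13. In such bulk tumour RNA, fewer cells of a type and less RNA per cell cannot be told apart.

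Of the 47 genes 46 passed the filter, which kept a gene if its average over the 14 libraries exceeded the floor by over 1 log2 unit. Ndufa4l2 did not pass. No Nduf gene passed limma's test after Benjamini-Hochberg adjustment over all 13711 tested genes in any of the 6 comparisons, and neither did any other gene, so that the background of called genes was 0%. The smallest adjusted p among the 46 was 0.999 for MYCi975 against vehicle, 1 for TMP195 against vehicle, 0.992 for the combination against vehicle, 0.611 for the combination against MYCi975, 0.998 for the combination against TMP195 and 0.911 for the interaction. At an unadjusted p under 0.05 there were 0, 0 and 0 Nduf genes for MYCi975, TMP195 and the combination against vehicle, among 457, 381 and 470 genes over the table. There were 2 Nduf genes for the combination against MYCi975, 1 against TMP195 and 0 for the interaction, among 1120, 603 and 656 genes.

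Most subunits nevertheless lay slightly lower with each treatment than with vehicle. Against vehicle 30 of 38 subunits were lower under MYCi975, 32 of 38 under TMP195 and 31 of 38 under the combination, where 48.3%, 49.2% and 50.3% of all tested genes were lower. With each library left out in turn, 24 to 30 subunits were lower under MYCi975 and 25 to 32 under TMP195. Under the combination the number ran from 26 to 34. The subunits share the same libraries, so they do not count as independent of each other. The median log2 difference of the subunits was -0.079 under MYCi975, -0.094 under TMP195 and -0.13 under the combination, and the medians of all tested genes were 0.0073, 0.0036 and -0.0022. For the 8 assembly factors the medians were -0.10, -0.030 and -0.10, with 5 of 8, 5 of 8 and 6 of 8 lower. These 3 comparisons share the 4 vehicle libraries, so they are not independent of each other.

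The vehicle libraries themselves differed by more than these medians. The list mean of the 38 tested subunits was -0.12, 0.031 and -0.075 in the combination libraries, -0.035, -0.063, 0.010 and 0.082 with MYCi975 and -0.12, -0.002 and 0.072 with TMP195, against -0.12, 0.085, 0.14 and 0.12 with vehicle. Vehicle replicate 1 was thus as low as the lowest treated libraries, and the other vehicle libraries lay at the top of the range together with MYCi975 replicate 4 and TMP195 replicate 3. Of the 46 tested genes 24 (52.2%) had their lowest vehicle value in vehicle replicate 1, as did 23.1% of all tested genes. For the assembly factors the list mean was -0.095, -0.025 and 0.0038 with the combination, 0.0052, -0.041, 0.053 and -0.019 with MYCi975 and -0.017, -0.022 and -0.034 with TMP195, against -0.073, -0.017, 0.17 and 0.11 with vehicle. Every treated group overlapped the vehicle group in both lists. Vehicle replicate 3, the library with the highest muscle marker mean, had the highest mean of both lists. For the subunits some other libraries went with this, such as combination replicates 2 and 3, and others went the other way. Vehicle replicate 4 had a muscle marker mean of -1.49, with 0.12 for subunits and 0.11 for assembly factors. MYCi975 replicate 2 had a muscle marker mean of 1.80, with -0.063 for subunits and -0.041 for assembly factors. With the muscle marker mean as a covariate the subunit medians were -0.073 for MYCi975, -0.083 for TMP195 and -0.11 for the combination. The part of muscle content in these differences was not tested.

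**Figure D1:**
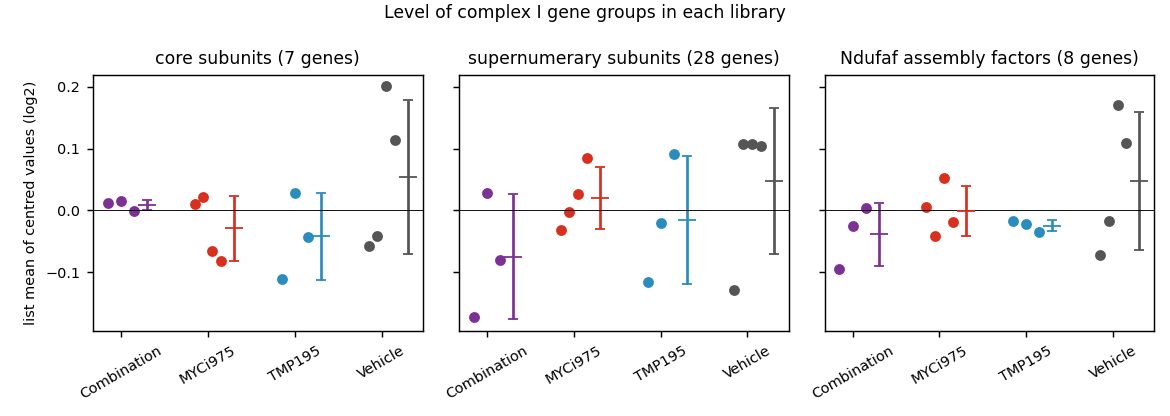
List mean of centred expression values (log2, vertical axis) in each library for the 7 nuclear core subunits, the 28 supernumerary subunits of the 4 modules and the 8 Ndufaf assembly factors, by treatment group. Points are libraries, and bars beside them give the group mean and SD (n = 3, 4, 3 and 4); all treated groups overlap the vehicle group, in which replicate 1 lies at -0.13 for supernumerary subunits and the other 3 libraries lie near 0.11.

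No difference between subunits and assembly factors was resolved. The list mean of the subunits minus that of the assembly factors averaged -0.018 ± 0.068 with the combination (SD, n = 3), -0.00095 ± 0.069 with MYCi975 (n = 4) and 0.0065 ± 0.11 with TMP195 (n = 3), against 0.0093 ± 0.067 with vehicle (n = 4). The pooled SD between libraries of 1 group was 0.077, larger than any difference between these group means. The median log2 difference of subunits minus that of assembly factors was 0.020 for MYCi975, -0.064 for TMP195 and -0.036 for the combination against vehicle. No test was made of these differences, because the genes were chosen with earlier results of the same data known.

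The intervals describe, gene by gene and on this scale, how large a change could be given the spread between libraries. Outside Ndufb4c, the 95% intervals of all 45 other tested genes lay within 1 log2 unit of 0 in the 3 comparisons with vehicle. They reached at the lowest -0.77 (Ndufaf3) with MYCi975, -0.89 (Ndufa5) with TMP195 and -0.89 (Ndufaf3) with the combination. At the highest they reached 0.70 (Ndufb2), 0.65 (Ndufv3) and 0.54 (Ndufaf8). No adjustment for multiple genes was made to the intervals. For genes close to the floor the scale compresses fold changes, which concerns Ndufaf2, Ndufaf3, Ndufaf6, Ndufaf8 and Ndufb4 most. The spread within groups was close to that of other genes, with a median pooled SD of 0.22 for subunits, 0.19 for assembly factors and 0.24 for all tested genes. The steadiest were Ndufb11 of the distal arm (SD 0.084) and Ndufa8 of the proximal arm (0.087), and the least steady of those outside Ndufb4c were Ndufaf3 (0.44) and Ndufb4 (0.40).

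**Figure D2:**
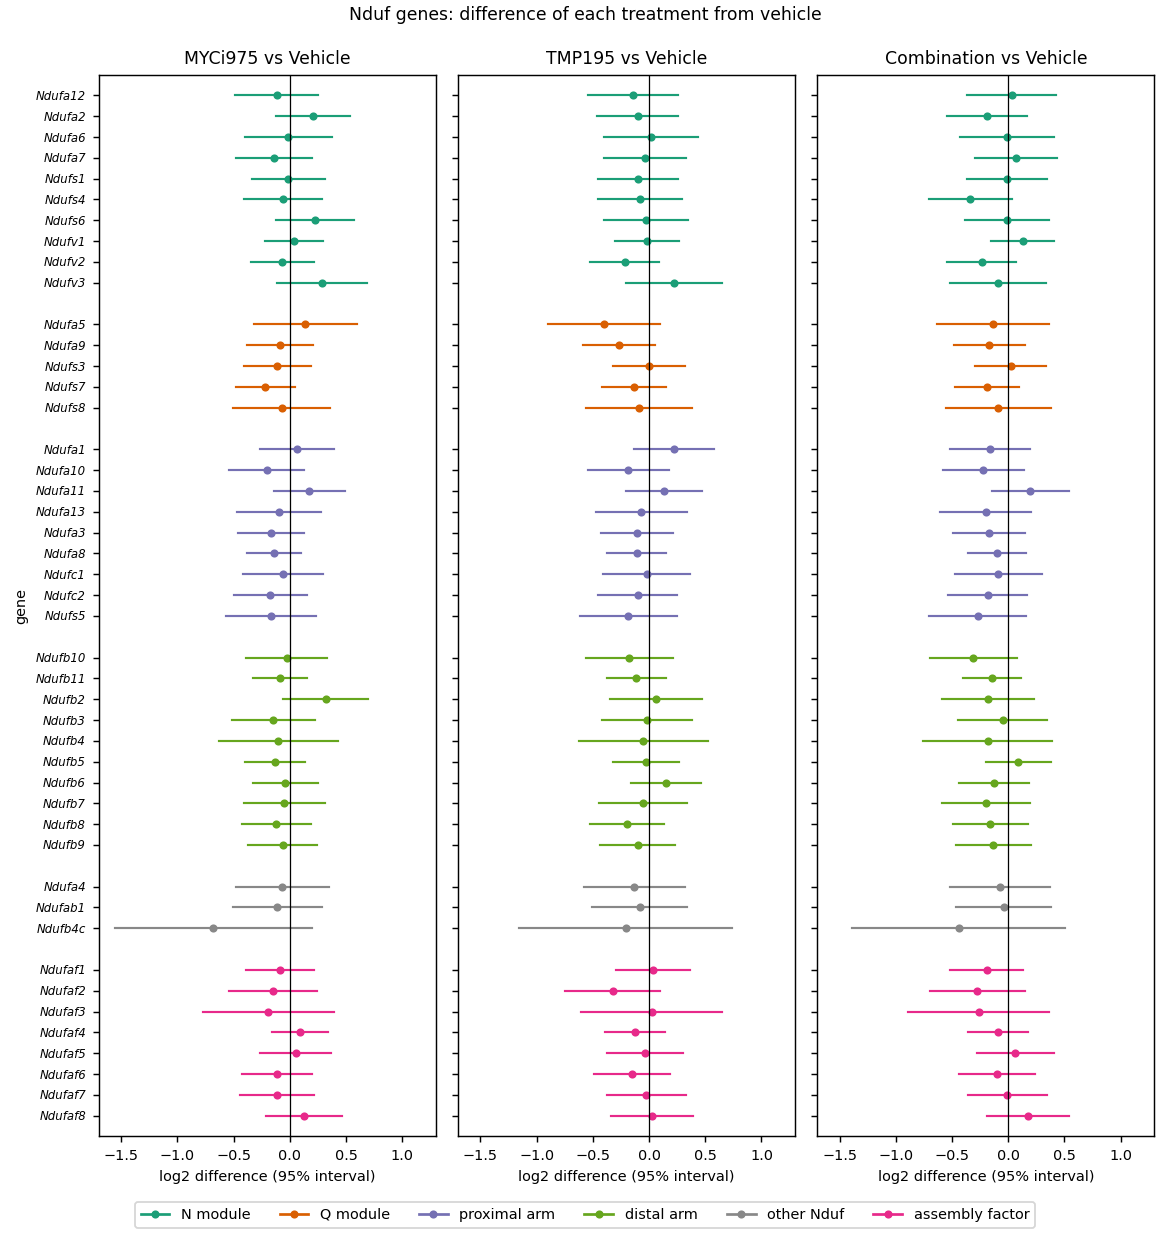
Log2 difference from vehicle (horizontal axis, points) with its 95% interval (lines) for 45 of the 46 tested Nduf genes (vertical axis) under MYCi975, TMP195 and the combination, coloured by module. All 45 intervals span 0 in each panel, most points lie slightly to the left of it, and Ndufb4c has the widest interval.

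With MYCi975 the largest differences from vehicle had no common direction by module. The module medians were -0.014 for the N module (6 of 10 lower), -0.10 for the Q module (5 of 6), -0.14 for the proximal arm (7 of 9) and -0.074 for the distal arm (9 of 10). Ndufb2, a supernumerary subunit of the distal membrane arm, had 6.77, 7.28, 7.25 and 6.96 with MYCi975, against 6.72, 7.11, 6.52 and 6.62 with vehicle. The MYCi975 libraries were mostly the higher ones, but the groups overlapped, and the difference was 0.32 ± 0.18 (standard error, limma adjusted p = 0.999). Ndufv3, a supernumerary subunit of the N module, had 7.61, 7.89, 7.40 and 7.60 with MYCi975, against 6.88, 7.51, 7.52 and 7.45 with vehicle. Vehicle replicate 1 lay well below the other vehicle libraries, and the difference of 0.29 ± 0.19 was 0.14 without it. Ndufs6, a zinc-binding subunit of the N module, differed by 0.22 ± 0.16, and by 0.080 without vehicle replicate 1. On the lower side Ndufs7, an iron-sulfur subunit of the Q module, had 7.13, 7.39, 7.25 and 7.11 with MYCi975, against 7.20, 7.49, 7.67 and 7.40 with vehicle. It differed by -0.22 ± 0.12 (95% interval -0.48 to 0.048), with overlapping groups. Ndufa10 of the proximal arm differed by -0.21 ± 0.16, with 7.79, 8.53, 8.38 and 8.18 with MYCi975, against 8.34, 8.49, 8.39 and 8.48 with vehicle. Its lowest value belonged to MYCi975 replicate 1 and its highest to MYCi975 replicate 2, so the treated libraries lay on both sides of the vehicle ones. Without MYCi975 replicate 1 its difference was -0.060, and without vehicle replicate 3 that of Ndufs7 was -0.14.

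MYC binds the E-box CACGTG, so the RefSeq promoter windows (250 bases before to 50 after the transcription start, build GRCm38.p6) were searched for it. The E-box is its own reverse complement, so a search of one strand covers both. Windows were found for 40 of the 47 genes. The E-box was present in 2 of the 40 (5.0%), Ndufv1 and Ndufa7, and in 8.1% of the 27025 genes with a window. Both are shown because they are the members that carry the motif, in capitals, and both are written on the strand of the gene. Ndufa7 has a second window in the table, shifted by a later start, which holds the same E-box. The window of Ndufv1 lies at chr19:4012706-4013005 on the minus strand and that of Ndufa7 at chr17:33824322-33824621 on the plus strand.
Ndufv1: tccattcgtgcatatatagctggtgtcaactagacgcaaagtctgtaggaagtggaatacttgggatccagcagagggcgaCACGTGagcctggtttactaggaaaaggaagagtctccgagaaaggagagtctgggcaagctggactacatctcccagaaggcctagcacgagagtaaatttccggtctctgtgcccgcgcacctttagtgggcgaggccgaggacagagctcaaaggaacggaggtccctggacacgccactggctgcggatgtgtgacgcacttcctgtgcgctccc
Ndufa7: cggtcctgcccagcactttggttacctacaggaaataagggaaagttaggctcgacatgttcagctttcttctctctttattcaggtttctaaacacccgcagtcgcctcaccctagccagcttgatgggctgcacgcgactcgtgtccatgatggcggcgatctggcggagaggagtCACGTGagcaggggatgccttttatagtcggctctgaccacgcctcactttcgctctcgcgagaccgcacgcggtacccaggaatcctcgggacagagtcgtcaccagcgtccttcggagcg

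Neither of these genes differed from vehicle beyond its error with MYCi975. Ndufv1, whose protein binds NADH and the flavin cofactor, had 8.07, 8.09, 8.01 and 7.91 with MYCi975, against 8.09, 7.75, 7.997 and 8.09 with vehicle, a difference of 0.037 ± 0.12. Ndufa7, a supernumerary subunit, had 6.06, 6.41, 6.60 and 6.48 with MYCi975, against 6.15, 6.59, 6.66 and 6.72 with vehicle, a difference of -0.14 ± 0.16. The other motifs searched, on both strands and with at most 1 kind of motif in any Nduf window, were the NRF1 core GCGCATGCG in 4 of 40 genes (10%, and 2.0% of all genes), the ETS core CCGGAAG in 6 (15%, and 9.9%) and the ERR site TCAAGGTCA in 0 (0.5% of all genes). The NRF1 core is nearly its own reverse complement, and in Ndufa11, Ndufaf4 and Ndufaf5 a match on each strand overlapped the other. The NRF1 core was in Ndufa8, Ndufa11, Ndufaf4 and Ndufaf5, and the ETS core in Ndufs3, Ndufs8, Ndufb6, Ndufb7, Ndufaf1 and Ndufaf8. A match describes the letters of the window, not binding.

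With TMP195 6 of 6 subunits of the Q module, the part that reduces ubiquinone, were lower. Of these Ndufs3 was at -0.0018 ± 0.15, and at 0.095 without TMP195 replicate 3. The 7 nuclear core subunits, which belong to the N and Q modules, were all lower too. These counts were not tested, and the genes share the same libraries. The module medians were -0.058 for the N module (8 of 10 lower), -0.12 for the Q module (6 of 6), -0.10 for the proximal arm (7 of 9) and -0.053 for the distal arm (8 of 10). Ndufa5 of the Q module had 6.80, 6.39 and 7.64 with TMP195, against 7.22, 7.11, 7.43 and 7.61 with vehicle. TMP195 replicates 1 and 2 lay below all vehicle libraries and replicate 3 above them, so the difference of -0.40 ± 0.23 (limma adjusted p = 1) depended on which library was counted. Without TMP195 replicate 3 it was -0.75. Ndufa9, another Q module subunit, had 6.44, 6.68 and 6.71 with TMP195, against 6.87, 6.94, 7.003 and 6.70 with vehicle. TMP195 replicates 1 and 2 lay below all vehicle libraries, replicate 2 by a margin of hundredths, and the difference was -0.27 ± 0.15 (95% interval -0.59 to 0.050). Among the assembly factors the largest difference was that of Ndufaf2, a relative of the subunit Ndufa12 that acts late in assembly, at -0.32 ± 0.20. It had 5.09, 4.61 and 5.59 with TMP195, against 5.63, 5.27, 5.43 and 5.38 with vehicle, and without TMP195 replicate 2, the lowest library, the difference was -0.081. On the higher side stood Ndufv3 at 0.22 ± 0.20, which was 0.061 without TMP195 replicate 3 and 0.071 without vehicle replicate 1. Next came Ndufa1, a small membrane subunit of the proximal arm, at 0.22 ± 0.17, and Ndufb6 of the distal arm at 0.15 ± 0.15. The subunit median was -0.033 without TMP195 replicate 1, the library in which 26 of the 46 genes (56.5%) and 31.4% of all tested genes had their lowest TMP195 value. It was -0.15 without TMP195 replicate 3.

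Against vehicle the combination had the lowest subunit median of the 3 treatments, though the differences between the treatments were not resolved. The medians were -0.15 for the 28 supernumerary subunits (24 lower) and -0.011 for the 7 core subunits (4 lower), and this gap was not tested. The module medians were -0.011 for the N module (7 of 10 lower), -0.11 for the Q module (4 of 6), -0.17 for the proximal arm (8 of 9) and -0.15 for the distal arm (9 of 10). Ndufs4, a supernumerary N module subunit whose loss causes Leigh syndrome in humans, had 8.31, 8.36 and 8.11 with the combination, against 8.25, 8.38, 8.78 and 8.99 with vehicle. The combination libraries lay at the level of the lower vehicle libraries, replicates 1 and 2, and the difference was -0.34 ± 0.17 (95% interval -0.71 to 0.035, limma adjusted p = 0.992). Ndufb10 of the distal arm had 6.98, 7.36 and 6.62 with the combination, against 7.03, 7.47, 7.29 and 7.41 with vehicle. Combination replicate 3 was the lowest and replicate 2 lay among the vehicle libraries, and the difference was -0.31 ± 0.18. Ndufv2, an iron-sulfur core subunit of the N module, differed by -0.24 ± 0.14. Higher values were few and small, led by Ndufa11 of the proximal arm at 0.20 ± 0.16, Ndufaf8 at 0.18 ± 0.17 and Ndufv1 at 0.13 ± 0.13. With each library left out in turn, Ndufa11 ran from 0.12 (without vehicle replicate 2) to 0.30 and Ndufaf8 from 0.090 (without vehicle replicate 1) to 0.27. Ndufv1 ran from 0.021 (without combination replicate 1) to 0.22. On the lower side Ndufb10 was -0.13 without combination replicate 3 and Ndufs4 -0.21 without vehicle replicate 4. The subunit median ran from -0.18 without vehicle replicate 1 to -0.093 without combination replicate 1.

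A few genes had combination values that did not overlap those of vehicle. On the lower side these were 3 of 46, namely Ndufa10, Ndufb11 and the assembly factor Ndufaf1, where 3.27% of all tested genes were lower without overlap. On the higher side there were 0 of 46, with a background of 2.80%. Ndufa10 had 7.98, 8.31 and 8.32 with the combination, against 8.34, 8.49, 8.39 and 8.48 with vehicle, and differed by -0.22 ± 0.17. Ndufb11 had 6.98, 6.87 and 6.97 with the combination, against 7.14, 7.02, 7.002 and 7.17 with vehicle. The combination libraries were below the vehicle ones by a narrow gap, and the difference was -0.14 ± 0.12. Ndufaf1, a factor of the membrane arm intermediate, had 5.59, 5.60 and 5.60 with the combination, against 5.72, 5.64, 5.90 and 5.90 with vehicle, a difference of -0.19 ± 0.15. None of the 3 passed limma's test (adjusted p = 0.992 for each). For MYCi975 against vehicle the count was 0 of 46 in both directions, with backgrounds of 1.03% higher and 0.707% lower. For TMP195 it was also 0 of 46 in both directions, with 2.40% higher and 1.87% lower.

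**Figure D3:**
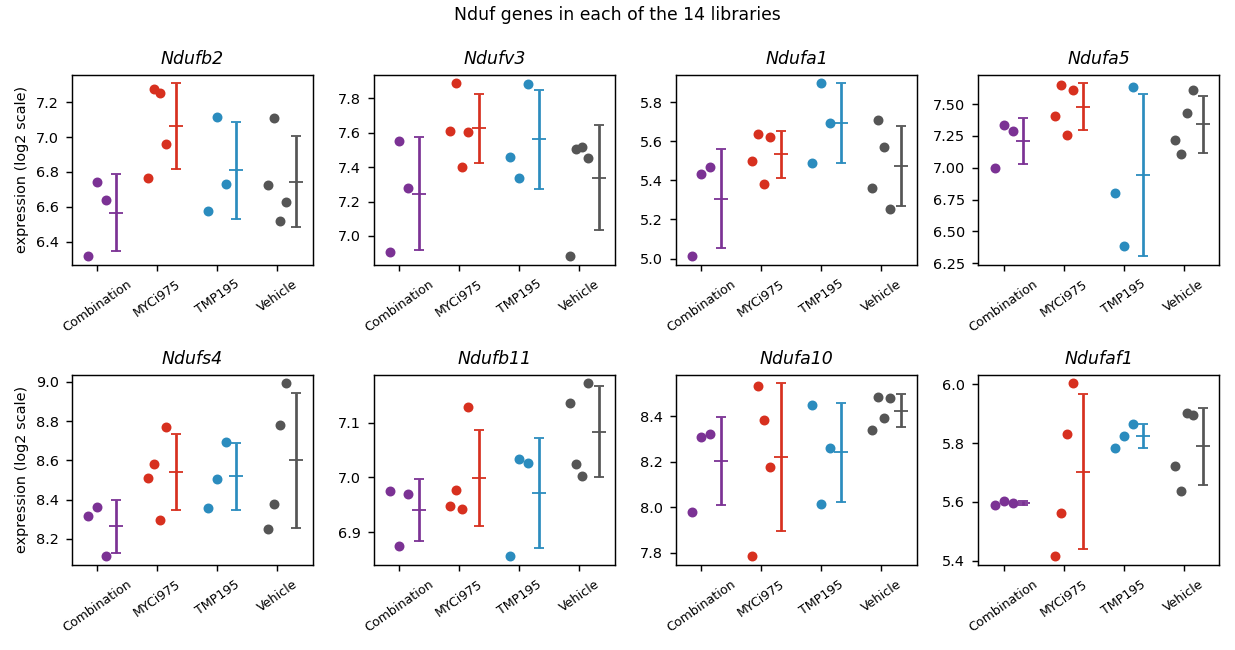
Expression on the log2 scale (vertical axes, not starting at 0) of Ndufb2, Ndufv3, Ndufa1, Ndufa5, Ndufs4, Ndufb11, Ndufa10 and Ndufaf1 in each library, by group, with the group mean and SD beside the points. The combination libraries lie below all vehicle libraries for Ndufb11, Ndufa10 and Ndufaf1, and below all MYCi975 libraries for Ndufb2.

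Set against MYCi975 alone, the combination had lower Ndufb2 and Ndufa2. Ndufb2 had 6.32, 6.74 and 6.64 with the combination, against 6.77, 7.28, 7.25 and 6.96 with MYCi975. All 3 combination libraries lay below all 4 MYCi975 libraries, and the difference was -0.50 ± 0.19 (95% interval -0.91 to -0.090, limma adjusted p = 0.611). Ndufa2, a supernumerary N module subunit, had 6.86, 7.28 and 6.93 with the combination, against 7.37, 7.59, 7.20 and 7.50 with MYCi975, a difference of -0.40 ± 0.17 with overlapping groups. Higher with the combination was Ndufb5 of the distal arm (0.22 ± 0.14). Over all subunits the median was -0.021, with 24 of 38 lower. It was -0.078 without MYCi975 replicate 2, and -0.060 in the fit that has Ptprc as a covariate. Without combination replicate 2 the difference of Ndufb5 was 0.090. Without overlap, 3 of 46 genes were lower (Ndufb2, Ndufs6 and Ndufaf4, background 3.97%) and 1 was higher (Ndufb5, background 3.53%).

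Against TMP195 alone the combination had lower Ndufa1, with 5.01, 5.43 and 5.47 with the combination, against 5.49, 5.90 and 5.70 with TMP195. The 2 groups did not overlap by a margin of hundredths, and the difference was -0.39 ± 0.18 (95% interval -0.77 to -0.0078, limma adjusted p = 0.998). Ndufb6 was next, with 6.11, 6.09 and 6.20 with the combination, against 6.39, 6.54 and 6.30 with TMP195 (-0.27 ± 0.16). On the higher side stood Ndufa5 (0.27 ± 0.25), which was 0.61 without TMP195 replicate 3 and -0.012 without TMP195 replicate 2. The subunit median was -0.032 and that of the assembly factors 0.039. Without TMP195 replicate 3 the subunit median changed sign, to 0.031 with 17 of 38 lower. With each library left out in turn the difference of Ndufa1 ran from -0.49 to -0.24. Without overlap, 3 of 46 genes were lower (Ndufa1, Ndufb6 and Ndufaf1, background 6.36%) and 1 was higher (Ndufaf8, background 5.48%). The 2 comparisons share the combination libraries.

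The interaction asks whether the combination departs from the sum of both single-agent differences. It was computed as the combination minus MYCi975, minus the difference of TMP195 from vehicle. The largest values belonged to Ndufv3 (-0.60 ± 0.28, 95% interval -1.21 to 0.0028) and Ndufb2 (-0.56 ± 0.27, 95% interval -1.14 to 0.015), which had positive differences from vehicle with each single agent and negative ones with the combination. Ndufv3 had 6.90, 7.55 and 7.28 in the combination libraries, 7.61, 7.89, 7.40 and 7.60 with MYCi975 and 7.46, 7.34 and 7.89 with TMP195, against 6.88, 7.51, 7.52 and 7.45 with vehicle. The groups overlapped, the lowest values came from combination replicate 1 and vehicle replicate 1, and without vehicle replicate 1 the interaction was -0.45. Ndufa1 followed at -0.45 ± 0.24. In the other direction stood Ndufa12, the N module relative of Ndufaf2, at 0.29 ± 0.26 and Ndufb5 at 0.25 ± 0.19. Ndufb5 had 7.48, 7.90 and 7.53 in the combination libraries, 7.37, 7.45, 7.40 and 7.43 with MYCi975 and 7.51, 7.53 and 7.51 with TMP195, against 7.39, 7.79, 7.41 and 7.58 with vehicle. None passed the test (adjusted p = 0.911 for Ndufv3, Ndufb2, Ndufa1 and Ndufb5 and 0.914 for Ndufa12). The interaction was positive for 7 of 7 core subunits (median 0.11) and for 14 of 28 supernumerary subunits (median 0.014), and its median over all tested genes was 0.0014. This contrast of core and supernumerary subunits was not tested, and the genes share the same libraries. The vehicle libraries alone had core list means of -0.058, -0.042, 0.20 and 0.11. The intervals of the interaction were wider than those of the simple comparisons and lay within 1 log2 unit of 0 for 43 of 46 genes.

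Among the 7 nuclear core subunits the largest difference from vehicle in any treated group was -0.24, that of Ndufv2 with the combination. In the N module Ndufs1, which holds several iron-sulfur clusters, averaged 8.92 ± 0.16 with the combination, 8.92 ± 0.20 with MYCi975 and 8.84 ± 0.13 with TMP195, against 8.94 ± 0.31 with vehicle (SD, n = 3, 4, 3 and 4, as for the other means here). Ndufv2 averaged 8.27 ± 0.20 with the combination, 8.44 ± 0.13 with MYCi975 and 8.29 ± 0.26 with TMP195, against 8.51 ± 0.11 with vehicle. In the Q module Ndufs3 averaged 7.23 ± 0.13 with the combination, 7.09 ± 0.12 with MYCi975 and 7.20 ± 0.21 with TMP195, against 7.21 ± 0.20 with vehicle. Its means differed by less than the SD within the TMP195 group. Ndufs8, an iron-sulfur subunit, averaged 6.30 ± 0.17 with the combination, 6.31 ± 0.38 with MYCi975 and 6.29 ± 0.083 with TMP195, against 6.38 ± 0.37 with vehicle. Its SD with MYCi975 and vehicle was larger than any difference between the group means. Ndufs7 averaged 7.25 ± 0.077 with the combination, 7.22 ± 0.13 with MYCi975 and 7.30 ± 0.053 with TMP195, against 7.44 ± 0.19 with vehicle. Its differences from vehicle were -0.22 under MYCi975, -0.13 under TMP195 and -0.19 under the combination, and all 3 of their 95% intervals held 0. The list mean of the 7 genes was 0.012, 0.015 and -0.0011 with the combination, 0.0099, 0.021, -0.066 and -0.081 with MYCi975 and -0.11, 0.029 and -0.043 with TMP195, against -0.058, -0.042, 0.20 and 0.11 with vehicle.

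Among the assembly factors, roles are known mainly from human cells. Ndufaf1 works with Ecsit, Acad9 and Tmem126b on the membrane arm and averaged 5.60 ± 0.0067 with the combination, 5.70 ± 0.26 with MYCi975 and 5.82 ± 0.040 with TMP195, against 5.79 ± 0.13 with vehicle. Its combination libraries were nearly identical, while the MYCi975 libraries ran from 5.42 to 6.002. Ndufaf3 and Ndufaf4 act together on the Q module. Ndufaf4 averaged 6.77 ± 0.094 with the combination, 6.96 ± 0.12 with MYCi975 and 6.74 ± 0.077 with TMP195, against 6.87 ± 0.066 with vehicle, and the largest of its differences in the 6 comparisons was -0.19 ± 0.12 for the combination against MYCi975. Ndufaf3, nearer the floor, averaged 5.17 ± 0.48 with the combination, 5.24 ± 0.35 with MYCi975 and 5.46 ± 0.54 with TMP195, against 5.43 ± 0.41 with vehicle, with SDs that exceeded all differences between groups. Ndufaf5, which hydroxylates an arginine of Ndufs7, averaged 6.06 ± 0.14 with the combination, 6.05 ± 0.14 with MYCi975 and 5.96 ± 0.17 with TMP195, against 5.999 ± 0.22 with vehicle, with differences smaller than the SDs. Its partner Ndufaf8 averaged 5.20 ± 0.11 with the combination, 5.15 ± 0.22 with MYCi975 and 5.05 ± 0.12 with TMP195, against 5.02 ± 0.28 with vehicle. Both had positive differences from vehicle with the combination and MYCi975, of at most 0.18. Ndufaf7, an arginine methyltransferase, averaged 6.56 ± 0.23 with the combination, 6.45 ± 0.13 with MYCi975 and 6.54 ± 0.20 with TMP195, against 6.57 ± 0.22 with vehicle. Ndufaf6, a factor of early assembly, averaged 5.13 ± 0.23 with the combination, 5.12 ± 0.19 with MYCi975 and 5.08 ± 0.064 with TMP195, against 5.23 ± 0.18 with vehicle. Ndufaf2 averaged 5.15 ± 0.11 with the combination, 5.27 ± 0.20 with MYCi975 and 5.10 ± 0.49 with TMP195, against 5.43 ± 0.15 with vehicle. For Ndufaf2 the 3 differences from vehicle were -0.15 under MYCi975, -0.32 under TMP195 and -0.27 under the combination, the lowest or second lowest of the 8 factors in each.

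A further 4 genes carry the name but are not simple complex I subunits. Ndufa4 encodes a protein now assigned to complex IV and averaged 5.98 ± 0.14 with the combination, 5.99 ± 0.32 with MYCi975 and 5.92 ± 0.18 with TMP195, against 6.05 ± 0.35 with vehicle. Ndufab1, the mitochondrial acyl carrier protein, which also sits in complex I, averaged 6.93 ± 0.26 with the combination, 6.86 ± 0.32 with MYCi975 and 6.88 ± 0.27 with TMP195, against 6.97 ± 0.22 with vehicle. For both genes the differences between groups were smaller than the SDs. Ndufa4l2, a relative of Ndufa4 that is induced by hypoxia, stayed between 4.05 and 5.07 and was at the floor in MYCi975 replicate 2. Ndufb4c is a near copy of Ndufb4, so reads may have been split between them in the authors' quantification and both are uncertain. Ndufb4c was at the floor in MYCi975 replicate 2 and had 6.16, 6.20 and 5.60 in the combination libraries, 6.13, 4.05, 6.21 and 6.61 with MYCi975 and 5.89, 6.53 and 6.25 with TMP195, against 5.97, 6.34, 6.57 and 6.84 with vehicle. Apart from that library the groups overlapped. Its differences from vehicle were -0.68 ± 0.41 under MYCi975, -0.21 ± 0.45 under TMP195 and -0.44 ± 0.45 under the combination. Without MYCi975 replicate 2 the first of these was -0.11, and the combination minus MYCi975 was -0.33, in place of 0.24 with all libraries.

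By the median over pairs, subunits varied together between libraries somewhat more than assembly factors did, with wide overlap. After group means were removed, the median Pearson correlation over the 14 libraries was 0.14 for 703 pairs of subunits, 0.087 for 304 pairs of a subunit and an assembly factor, 0.020 for 28 pairs of assembly factors and -0.0018 for all pairs of tested genes. The quartiles were -0.093 and 0.38 for pairs of subunits and -0.28 and 0.20 for pairs of assembly factors. Of the assembly factors Ndufaf2, Ndufaf3, Ndufaf6 and Ndufaf8 lay close to the floor, and the part of this in the gap was not tested. Subunits of the same module (median 0.10) and of different modules (0.12) had similar medians. The genes that followed the mean of the other module subunits most closely were Ndufs6 (r = 0.87), Ndufb9 (0.78), Ndufv3 (0.75), Ndufs5 (0.75) and Ndufa2 (0.74), and Ndufv1 ran against it (-0.33), as did Ndufb6 (-0.24). These are descriptions, since all pairs share libraries, depth and normalisation.

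**Figure D4:**
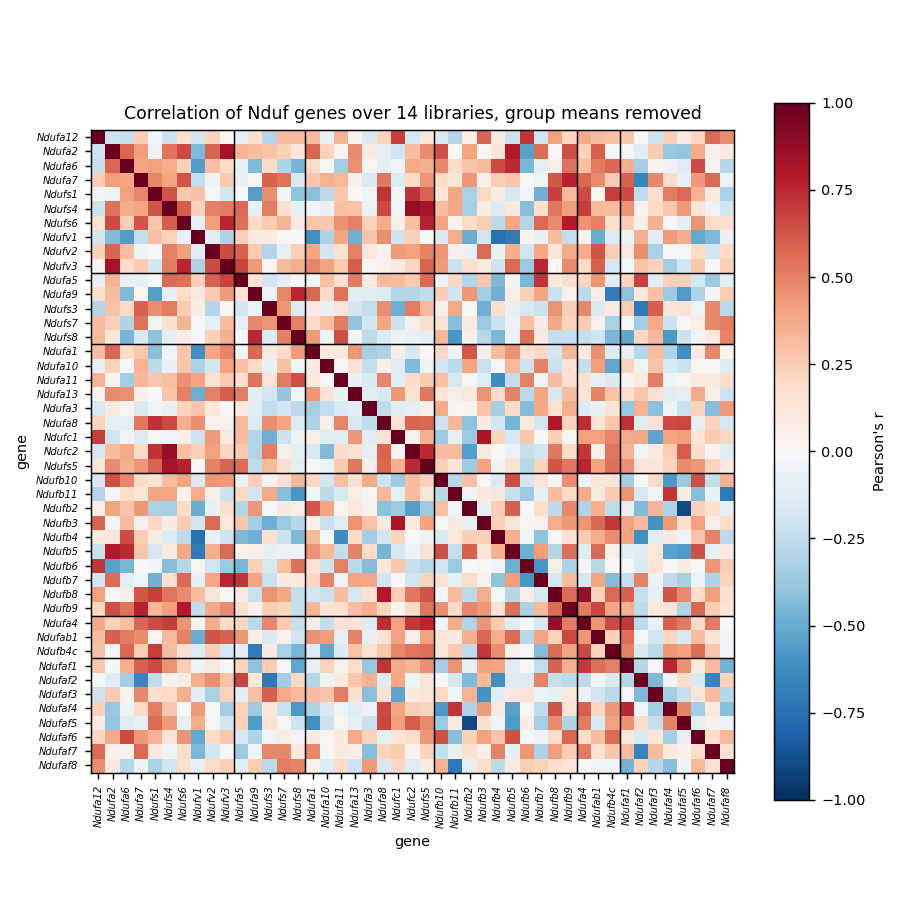
Pearson's r between 45 of the 46 tested Nduf genes (both axes) over 14 libraries after group means were removed, with black lines between the N module, Q module, proximal arm, distal arm, other Nduf genes and assembly factors. Positive values (red) are more common among subunits, with a median of 0.14, than among assembly factors in the lower right corner, with a median of 0.020.

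Assembly factors without an Nduf name had no common direction across treatments. Of 9 tested, 4 were lower with MYCi975 (median 0.036), 8 with TMP195 (-0.088) and 3 with the combination (0.038), and none passed the test. Acad9, which pairs with Ecsit in the membrane arm intermediate, had 7.88, 7.64 and 8.34 in the combination libraries, 7.54, 8.04, 8.14 and 7.65 with MYCi975 and 8.08, 8.12 and 7.61 with TMP195, against 7.26, 7.17, 7.63 and 8.01 with vehicle. It differed from vehicle by 0.33 ± 0.21 under MYCi975, 0.42 ± 0.23 under TMP195 and 0.44 ± 0.23 under the combination. The second smallest p belonged to Tmem186 with MYCi975 (-0.19), Foxred1 with TMP195 (-0.24) and Ecsit with the combination (-0.14). Of 7 tested regulators of nuclear mitochondrial genes none passed the test. The smallest p belonged to Yy1 (0.28) and Pprc1 (0.29) under MYCi975, to Tfam (-0.37) and Pprc1 (-0.056) under TMP195 and to Tfam (-0.40) and Nrf1 (-0.11) under the combination. Vehicle replicate 4 had the highest Tfam of the vehicle libraries, and without it the Tfam differences were -0.17 for TMP195 and -0.21 for the combination. The 7 complex I genes of mitochondrial DNA had a median of -0.016 under MYCi975, -0.18 under TMP195 and -0.51 under the combination, with 95% intervals of a median width of 1.03, 1.11 and 1.11 to each side. With each library left out in turn these medians ran from -0.26 to 0.36 for MYCi975 (highest without vehicle replicate 4), -0.61 to 0.44 for TMP195 (highest without TMP195 replicate 1) and -0.89 to -0.11 for the combination (highest without combination replicate 3). Over the 46 tested nuclear genes the median interval width to each side was 0.33, 0.36 and 0.36, and single genes were narrower or wider.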

How the data were processed

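RNA from LLC1 tumours was sequenced after total RNA extraction with an RNeasy kit and stranded library preparation with a SMARTer kit, per the labels' protocols. Salmon and the human build hg38 appear in the submitters' processing notes, although the deposited identifiers are mouse Ensembl genes, so the build used is not settled. The deposited values are variance-stabilised expression on a log2 scale for 21152 genes in 14 libraries, and the tool behind them is not named by the labels. No read counts were used, so the depth and the counting error are unknown.

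Identifiers were matched to mouse symbols, which 95.8% had. Genes were kept if their mean exceeded the floor of 4.047 by over 1 log2 unit. One linear model with a mean per group was fitted to the 13711 genes and 14 libraries with limma 3.58.1 in R 4.3.3 (moderation with an intensity trend), and p-values were adjusted by Benjamini-Hochberg within each of the 6 comparisons, with a threshold of 0.05. The fit was tested on simulated data with planted differences of at least 1 log2 unit, in genes drawn independently of each other. That test does not cover differences as small as those described here, or genes that vary together. Intervals are at 95% and cover the spread between libraries.

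The genes and the lists were chosen with earlier results of these data known, so no list has a test of its own. Genes named with values were the 3 with the smallest p in each direction for each comparison with vehicle and for the interaction, the 2 in each direction for the combination against each single agent, the 7 nuclear core subunits, all assembly factors, Ndufa4, Ndufa4l2 and Ndufab1. One gene that this rule names is not reported here, and it stays in the fits, counts and medians. Of the other lists the 2 genes with the smallest p are named. Genes named for a narrow or wide spread, a correlation, a motif or groups that do not overlap, such as Ndufb11, Ndufa7 and Ndufa8, were chosen after their values were seen. Alternatives were the filter, the scaling, the moderation, library weights, the replicate block, Ptprc or muscle markers as a covariate, the makeup of the lists and each library left out.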

Additional observations from a re-analysis of the deposited data

Results flagged for a closer look

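Of 110 groups of 4 libraries examined for a library far from the other 3, 3 held one, and chance gives about 1 in 20 groups. For Ndufa4l2 this was MYCi975 replicate 2, at the floor value of 4.05, while the remaining MYCi975 libraries lay at 4.74 to 4.83. Ndufv3 was at 6.88 in vehicle replicate 1, against 7.45 to 7.52 in the other vehicle libraries. The list mean of subunits minus that of assembly factors reached 0.10 for MYCi975 replicate 4, while the remaining MYCi975 libraries lay at -0.043 to -0.022.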

How the results depend on the processing

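No gene passed limma's adjusted test in any comparison under any alternative. Of the alternative values of the counts and list medians 767 were kept and 13 moved. A median was kept if it shifted by less than the pooled SD of its list mean. This limit was 0.095 for subunits, 0.069 for assembly factors and 0.077 for their gap. The subunit medians for MYCi975 and TMP195 against vehicle were smaller in size than this limit, so they could vanish and still be kept. Counts were all the same, and leaving out a library of a group not compared leaves a median unchanged. The number kept therefore says little about stability. All 13 moved values were medians of the 8 assembly factors or gaps between the subunit median and theirs, which had the smaller limits. The cause was not tested. For MYCi975 against vehicle the assembly factor median was -0.012 with a filter 2 log2 units above the floor and -0.021 with other assembly factors added, and the gap was -0.074 with the stricter filter. For the combination against vehicle that median was -0.0087 with other assembly factors added, and against TMP195 it was -0.036 with Ptprc as a covariate. With each library left out in turn, the assembly factor median ran from -0.099 to 0.047 for TMP195 against vehicle, -0.12 to 0.00029 for the combination against MYCi975 and -0.039 to 0.093 for the interaction. The gap ran from -0.12 to 0.023 for TMP195 against vehicle and -0.059 to 0.11 for the interaction. Replicate numbers gave no clear pairing of the libraries. The 19 pairs with the same number correlated at -0.30 to 0.21 (median 0.036, 6 above 0.1). The 54 pairs with different numbers correlated at -0.25 to 0.34 (median -0.0036, 14 above 0.1). With a replicate block the gap for TMP195 against vehicle was 0.014, and the subunit medians against vehicle were -0.079 for MYCi975, -0.026 for TMP195 and -0.10 for the combination. MYCi975 and vehicle hold the same replicate numbers, so the block cannot change their difference. Among named genes, judged in the same way by the pooled SD of each gene, 9 alternative values moved and 4737 did not. The moved ones were all of Ndufa5, Ndufa9 or Ndufb4c. Here too a difference could nearly vanish and still be kept, so the 4737 say little about stability. That of Ndufb4c for MYCi975 against vehicle went from -0.68 to -0.11 without MYCi975 replicate 2. It was kept, since the pooled SD of this gene was 0.70. Depth is unknown, so limits from counting error cannot be given.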
